A study of Mus musculus with 24 samples.

Results

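RNA of F9 cells was compared with RNA of whole brain on Arraystar Mouse lncRNA arrays, with 3 arrays of F9 cells and 3 of brain out of the 24 arrays of the series. The comparison covered all 60804 transcript probes of the array, and its main subject was the 119 probes for long noncoding RNAs (lncRNAs) at 109 neural gene loci, of 151 neural loci that were looked for. A lncRNA counted as a member when its own symbol or the protein-coding gene it is associated with was on 1 of 8 lists of neural genes, from receptors and channels to myelin. The names and the associated genes came from 3 lists of lncRNAs that accompany the study, which were held in part and start from the highest levels, so a weakly expressed lncRNA had less chance to be named. The brain arrays held total RNA from whole brain of 8-week-old male ICR mice, an outbred strain, and each replicate is labelled as a separate sample. The F9 arrays held total RNA from the F9 line, a mouse embryonal carcinoma line that the study counts among male germ cell-related lines. The cells were grown in DMEM with fetal bovine serum on gelatin-coated dishes, and the labels name no retinoic acid or other inducer. All 3 F9 arrays come from 1 line, so the p-values measure the spread between these cultures and animals only. Sex is given as male for the mice and was not checked in the F9 cells, and age, strain and culture differ between the groups.

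F9 cells come from a teratocarcinoma and resemble the cells of the early embryo: they express genes of pluripotency and, on retinoic acid, become endoderm. Brain tissue holds neurons, astrocytes, oligodendrocytes, microglia, vessels and blood. A lncRNA is classed by how it lies against the nearest protein-coding gene: exonic sense transcripts overlap the exons on the same strand, exonic antisense transcripts overlap them on the other strand, intronic transcripts lie within an intron, bidirectional transcripts overlap no coding gene but lie close to one, on either strand, and intergenic transcripts lie farther from any coding gene. A probe for an exonic sense lncRNA can lie in sequence that the mRNA of the gene also contains, so RNA of the coding gene and of the lncRNA cannot be told apart there. Many intronic and intergenic lncRNAs of this array are processed pseudogenes, copies of spliced mRNAs such as those of ribosomal proteins that were inserted elsewhere in the genome.

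The probes that carry the main contrast between classes are 60 bases long, and several lie in such pseudogenes within introns of neural genes. The sequences below are shown because 17 of the 38 intronic members (44.7%) shared a run of at least 16 bases, on the same strand, with another of the 1829 probes whose sequence was held, against 33.4% of all 1829 and 3 of the 25 exonic sense members. Capitals mark the longest shared run of each pair. The pair of Gm8217, in an intron of the serotonin receptor gene Htr5b (chr1:121520583-121521047, plus strand, GRCm38), and the intergenic pseudogene Rpl23a-ps4 (chr2:132662242-132662696, plus strand) shared 19 bases:
Gm8217: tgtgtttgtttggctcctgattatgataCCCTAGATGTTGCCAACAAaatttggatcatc
Rpl23a-ps4: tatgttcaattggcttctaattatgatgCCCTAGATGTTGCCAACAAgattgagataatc
The pair of Gm16303, in an intron of the chloride channel gene Ano2 (chr6:125739406-125739795, plus strand), and the intergenic Gm15014 (chrX:142216471-142216728, plus strand) shared 25 bases:
Gm16303: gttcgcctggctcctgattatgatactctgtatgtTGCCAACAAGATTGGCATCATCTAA
Gm15014: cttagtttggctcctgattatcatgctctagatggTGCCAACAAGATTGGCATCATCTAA
The pair of Gm14775, antisense in an intron of the synaptic adhesion gene Il1rapl1 (chrX:86792474-86792783, plus strand), and the intergenic pseudogene Gm14614 (chrX:41685994-41686377, minus strand) shared 35 bases:
Gm14775: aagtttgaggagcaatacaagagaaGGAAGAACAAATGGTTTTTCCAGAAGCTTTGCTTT
Gm14614: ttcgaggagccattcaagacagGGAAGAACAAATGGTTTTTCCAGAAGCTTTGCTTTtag
The pair of Gm13312, in an intron of the calcium channel subunit gene Cacnb2 (chr2:14672255-14672720, plus strand), and the intergenic pseudogene Gm5566 (chr5:149660765-149661223, minus strand) shared 29 bases:
Gm13312: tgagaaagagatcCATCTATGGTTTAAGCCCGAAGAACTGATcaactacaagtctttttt
Gm5566: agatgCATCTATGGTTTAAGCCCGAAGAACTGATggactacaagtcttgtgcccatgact
The pair of Gm16547, antisense in an intron of Cnih3, which encodes an auxiliary protein of AMPA receptors (chr1:181400464-181400756, minus strand), and the intergenic pseudogene Gm13472 (chr2:48388037-48388350, plus strand) shared 29 bases:
Gm16547: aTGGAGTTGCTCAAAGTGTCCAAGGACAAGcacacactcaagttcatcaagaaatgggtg
Gm13472: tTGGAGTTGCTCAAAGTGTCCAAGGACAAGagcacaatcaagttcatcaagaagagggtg

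The given marker genes were read first. The mRNA of Zfp42, also called Rex1, a zinc finger factor of pluripotent cells, was not well above background on any brain array and had levels of 4.22, 4.77 and 4.97 on the F9 arrays. A level here is the log2 of the background-subtracted intensity minus the 75th percentile of that array, so that 0 is the array's own 75th percentile. Zfp42 was at least 281-fold higher in F9 cells than in brain (limma adjusted p = 6.38e-08), where "at least" takes a signal below the lowest detected level of its array at that level. The exonic sense lncRNA of Gap43, which encodes a protein of growth cones and axons (chr16:42248458-42276072, minus strand), had levels of 7.39, 7.31 and 7.24 in brain and of 5.66, 4.79 and 5.03 in F9 cells. All brain arrays lay above all F9 arrays, and the difference was -2.15 ± 0.30 (log2, SE, n = 3 and 3, limma adjusted p = 0.000272), or 4.44-fold. It was therefore just under the limit used for a call, a fold of at least 5 with an adjusted p of at most 0.05. Gap43 passed that limit when the arrays were scaled on the probes detected on all 6 arrays (-2.81). Its RNA was well above background on all F9 arrays, so it separates the groups by level and not by detection.

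Brain and F9 arrays shared most of what F9 cells expressed. A probe was taken as detected in a group when it was well above background on all 3 of its arrays, which held for 29086 probes in brain and 22345 in F9 cells, with 20464 in both (91.6% of those of F9 cells). The brain arrays were brighter, with 75th percentiles of 119 to 154 intensity units against 65.5 to 105 and with 30232 to 33692 probes well above background against 23525 to 27537. A signal therefore had to lie higher on the normalized scale to be detected on an F9 array (lowest detected level -2.94 to -2.14) than on a brain array (-3.81 to -3.12). With 1 common limit at the highest of these, the number of probes detected in brain and not in F9 cells went from 8622 to 5212 and the opposite number from 1881 to 3487. In the fit over all probes, 5142 probes were higher in F9 cells (8.46%) and 4847 were lower (7.97%). The median over all probes was 0.79 above brain in F9 cells, and with the arrays scaled on the probes detected on all 6 arrays it was 0.13, with 3003 probes higher (4.94%) and 6933 lower (11.4%).

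Of the 119 neural-locus members, 63 were lower in F9 cells, 14 were higher and 42 were not called, and the median difference was -2.65 on the log2 scale. Of the 63 lower members, 48 had no F9 array above background, so that their fitted differences have no measured size: the bound was 5-fold or more for 23 of these and under 5-fold for 25. The 23 include Lrrtm3, whose value is the fitted one, as given below. With the members that no F9 array detected set at their bound, the median over the 119 was -1.15. Detection was asked of the same members: 62 were detected on all 6 arrays, 49 on all brain arrays and no F9 array, and 8 on all brain arrays and some F9 arrays, while none was detected in F9 cells alone. Among all probes detected in brain, 70.4% were detected in F9 cells too and 17.5% on no F9 array. Of the 49 members on no F9 array, 42 were named only by the study's list of brain-specific lncRNAs, which required detection in brain. Of the 69 members named by its lists of brain or F9 lncRNAs, 59 were detected on all 6 arrays and 7 on no F9 array. The detection counts over the 119 are therefore no independent evidence of loss in F9 cells. Brain and F9 arrays did not overlap for 111 of the 119 members, as they did not for 69.9% of all probes. In 76 of these all brain arrays lay above all F9 arrays (20.4% of all probes) and in 35 all F9 arrays lay above all brain arrays (49.5% of all probes). With the scaling on detected probes, 66 members were lower and 7 were higher, and after quantile normalization 4 were higher. Of the 62 members detected on all 6 arrays, 9 were lower and 14 were higher, beside 4.79% and 15% of all probes detected on all 6 arrays, and with the scaling on detected probes 11 were lower and 7 were higher, beside 8.08% and 7.98%. With normexp background correction 25 of the 119 members were lower.

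**Figure D1:**
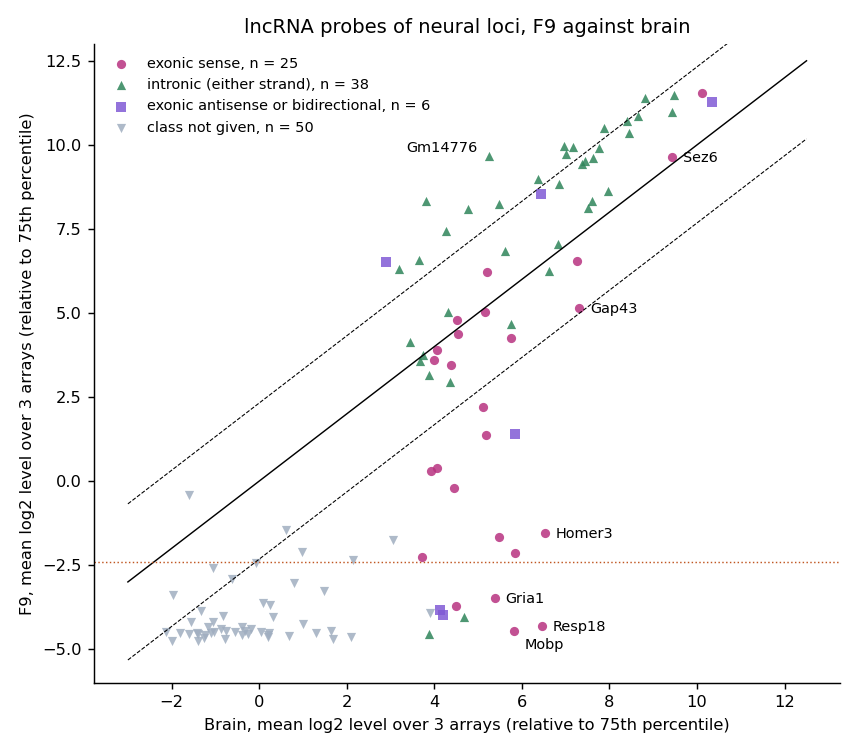
Mean level in brain (x axis) and in F9 cells (y axis), both log2 relative to the 75th percentile of the array over 3 arrays, for the 119 lncRNA probes of neural loci. Solid line, equal levels; dashed lines, a fold of 5; dotted line, mean of the lowest detected levels on the F9 arrays. Green triangles (intronic) lie mostly above the solid line, magenta circles (exonic sense) mostly on or below it, with 4 of 25 above, and most probes whose class is not given lie below the dotted line.

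The source of a name went with the result. Of the 69 members named by the list of brain lncRNAs or the list of F9 lncRNAs, 18 were lower, 14 were higher and 37 were not called, with a median of 0.28. Of the 50 members named only by the list of brain-specific lncRNAs, 45 were lower, none was higher and the median was -3.71. The study chose that list on these same brain arrays against other tissues, so its count is no independent evidence of the direction. The relationship class is given for the first 69 only.

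The members split by how they lie against the neural gene. Of the 25 exonic sense members, 13 were lower in F9 cells and none was higher, with a median of -2.90, and 19 of the 25 were detected on all 6 arrays. Of the 38 intronic members, 13 were higher and 2 were lower, with a median of 1.99, and 36 were detected on all 6 arrays. Over all probes 7.97% were lower and 8.46% were higher, and among probes detected on all 6 arrays 4.79% and 15%. Under the scaling on detected probes, 6 of the intronic members were higher, the median was 1.33 and 2 were lower, while 14 exonic sense members were lower. Among all probes detected on all 6 arrays, that scaling gave 8.08% lower and 7.98% higher. Of the 5 exonic antisense members, 3 were lower and 1 was higher, and the 1 bidirectional member, 1600029O15Rik beside Islr2, was not called (2.11).

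Intronic lncRNAs at large were placed in the same way. Of all 245 intronic lncRNAs in the list of brain lncRNAs, 92 were higher in F9 cells (37.6%) and 10 were lower (4.08%), with a median of 2.07. The number higher depended on the scaling: it was 35 with the 75th percentile and 57 with the median of probes detected on all 6 arrays, and 14 after quantile normalization. Of the 376 exonic sense lncRNAs in that list, 55 were lower and 20 were higher, with a median of 0.09. Among the 1128 lncRNAs on both the brain and the F9 list, the median was 2.20 for 215 intronic, 2.08 for 625 intergenic, 1.04 for 27 bidirectional, 0.69 for 214 exonic sense and 0.59 for 47 exonic antisense lncRNAs. A pseudogene biotype, taken from RefSeq by symbol, went with higher values within the intergenic class: the median was 2.34 for 334 pseudogenes and 1.25 for 291 transcripts with no matched pseudogene biotype. Within the intronic class the medians were 2.32 for 108 pseudogenes and 2.07 for 107 without one. Of the transcripts without one, 257 of the 291 and 99 of the 107 had no RefSeq match, so that their biotype was unknown.

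**Figure D2:**
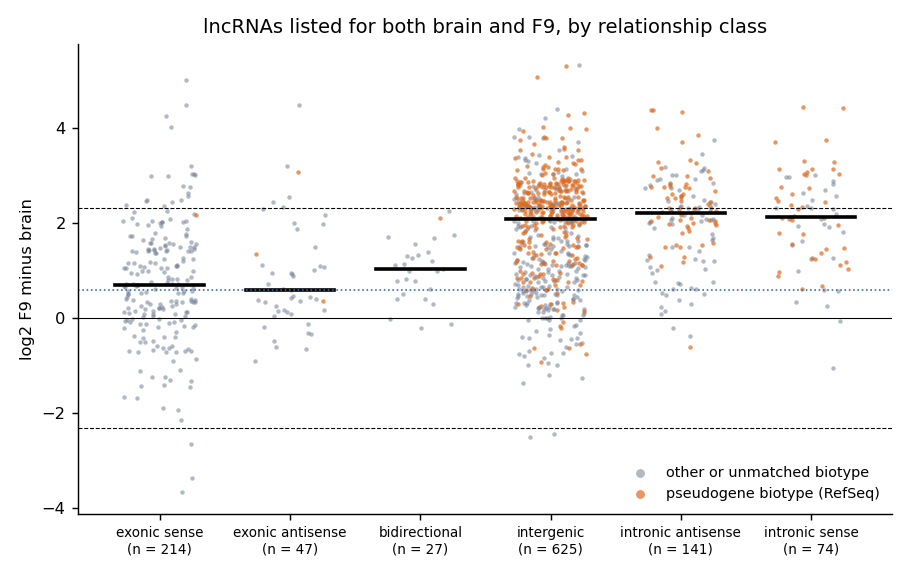
Difference of F9 cells minus brain (log2) for the lncRNAs on both the brain and the F9 list, by relationship class. Each point is 1 probe, orange where RefSeq gives a pseudogene biotype, each bar is a median, dashed lines mark a fold of 5 and the dotted line the median of all probes detected on all 6 arrays (0.59). The intergenic and intronic medians lie above the dotted line and orange points crowd near the upper dashed line, while the exonic sense and exonic antisense medians (0.69 and 0.59) lie on or close to the dotted line.

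The transmitter receptor and transporter loci had 20 members, 10 lower in F9 cells and 4 higher, beside 7.97% and 8.46% of all probes. Each of the 8 groups holds members named only by the list of brain-specific lncRNAs, so these counts are no independent evidence of direction. The exonic sense lncRNA of Gria1, an AMPA receptor subunit (chr11:57242749-57330244, plus strand), had brain levels of 5.27, 5.15 and 5.72 and was not well above background on any F9 array, and was at least 222-fold lower there (limma adjusted p = 1.48e-07). The lncRNA named for Gria2, another AMPA receptor subunit, had brain levels of 1.38, 1.90 and 1.80 and was at least 17.3-fold lower. The lncRNA named for Grm5, a metabotropic glutamate receptor, had brain levels of 3.56, 3.98 and 4.17 and was at least 79.7-fold lower. For these 3 receptor loci the F9 arrays gave no signal above background, and all brain arrays did. At the NMDA receptor gene Grin1 the brain levels were 1.04, 0.49 and 0.85, with no F9 array detected and a difference of at least 8.92-fold. On F9 replicate 3 its signal of -1.97 was above the lowest detected level of that array (-2.14), so it entered that value as measured. The exonic sense lncRNA of the somatostatin receptor gene Sstr2 was detected on all 6 arrays and was lower in F9 cells, with 4.26, 4.54 and 4.52 in brain and 0.57, -0.60 and -0.61 in F9 cells (-4.65 ± 0.36).

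At other loci of the same group the signal was high in both. Gm5822, a pseudogene antisense in an intron of the glutamate transporter gene Slc1a1 (chr19:28862330-28863707, minus strand), had levels of 8.99, 9.08 and 8.39 in brain and of 11.29, 11.39 and 11.49 in F9 cells. It was higher in F9 cells by 2.57 ± 0.28 (log2, SE, limma adjusted p = 6.44e-05), and by 1.91, under the limit for a call, with the scaling on detected probes. Gm16547 at Cnih3 had 8.04, 8.05 and 7.56 in brain and 10.18, 10.57 and 10.77 in F9 cells (2.62 ± 0.29), and 1.96 under that scaling. All F9 arrays lay above all brain arrays for both pseudogenes. Gm8217 at Htr5b had 8.79, 8.73 and 8.43 in brain against 10.56, 10.96 and 11.09 in F9 cells, and its difference of 2.22 ± 0.27 was not called. AK137830, which runs antisense over the exons of the galanin receptor gene Galr2 (chr11:116280100-116284360, minus strand), had 10.26, 10.49 and 10.27 in brain and 10.77, 11.49 and 11.55 in F9 cells, a difference of 0.93 ± 0.30 that was not called and that was -0.65 after quantile normalization. The AK137830 probe shared runs of up to 26 bases on the same strand with probes at many other loci. Those of 3110009E18Rik and AK133540 changed by 0.86 and 1.07. Its signal therefore cannot be assigned to the Galr2 locus alone, and the share of each locus was not tested. The exonic sense lncRNA of the glutamate receptor-related gene Grid1 was detected on all arrays as well (-0.71 ± 0.26, not called).

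The ion channel and pump loci had 17 members, 8 lower in F9 cells and 5 higher, beside 7.97% and 8.46% of all probes. 4931430N09Rik, a lncRNA antisense in an intron of Cacna1c, the pore subunit of an L-type calcium channel (chr6:118880158-118885543, plus strand), had brain levels of 3.97, 3.55 and 4.14 and was not well above background on any F9 array, at least 78.9-fold lower (limma adjusted p = 1.4e-07). It was 1 of the 2 intronic members that were lower.

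The genes of calcium channel beta subunits carried intronic members with the opposite order. At Cacnb2, Gm13312 had 7.10, 7.12 and 6.64 in brain and 9.62, 10.01 and 10.26 in F9 cells (3.01 ± 0.29, higher, 2.35 with the scaling on detected probes). Gm13314 at the same gene had 3.44, 3.47 and 2.63 in brain and 6.01, 6.47 and 6.48 in F9 cells (3.14 ± 0.32, higher), while Gm13315 had 7.66, 7.88 and 7.72 and then 9.84, 9.88 and 9.99 (2.15 ± 0.24, not called). Gm13541 at Cacnb4 was higher by 2.93 ± 0.31. These members share host genes and are not independent of each other. Gm16303 at Ano2 had 8.50, 8.46 and 8.24 in brain and 10.32, 10.83 and 10.95 in F9 cells, a difference of 2.30 ± 0.28 that was not called. The exonic antisense AK142264 at the potassium channel gene Kcnj6 had 3.39, 2.80 and 2.51 in brain and 6.51, 6.45 and 6.57 in F9 cells (3.61 ± 0.29), the 1 member outside the intronic class that was higher.

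The synapse loci had 24 members, 14 lower in F9 cells and 3 higher, beside 7.97% and 8.46% of all probes. The lncRNA named for Snap25, a SNARE protein of vesicle release, had brain levels of 1.74, 1.36 and 1.84 and no F9 array above background, at least 16.7-fold lower (limma adjusted p = 2.56e-07). Lrrtm1 and Lrrtm3 encode postsynaptic adhesion proteins. The lncRNA named for Lrrtm1 had 1.87, 2.25 and 2.20 in brain and was at least 23.0-fold lower. That of Lrrtm3 had 2.13, 1.61 and 2.67 and was 22.6-fold lower as fitted. Its F9 signals, though not well above background, were above the lowest detected levels of their arrays, so this value is no bound. Some exonic sense members were lower although still detected in F9 cells: Homer3, a postsynaptic scaffold gene, had 6.47, 6.31 and 6.81 in brain and -1.70, -1.42 and -1.49 in F9 cells (-8.07 ± 0.26). AK141620 at Unc13a, a vesicle priming gene, had 5.15, 5.61 and 5.66 and then -1.36, -1.95 and -1.65 (-7.13 ± 0.28).

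The 3 synapse members that were higher in F9 cells were intronic. Gm14776, a pseudogene in an intron of Il1rapl1 (chrX:87771339-87772352, minus strand), had levels of 5.53, 5.16 and 5.06 in brain and of 9.31, 9.85 and 9.87 in F9 cells (4.43 ± 0.28, limma adjusted p = 2.27e-06), and its difference was 3.77 with the scaling on detected probes. Gm14775, in the same gene, was higher by 2.73 ± 0.29. For Nlgn2 and AK213543 at Clstn3, exonic sense members at postsynaptic adhesion genes, brain and F9 levels differed by 0.28 ± 0.25 and -0.16 ± 0.25, which was not called. Another exonic sense probe at Clstn3 had mean levels of 5.74 in brain and 4.25 in F9 cells (-1.49), also under the fold limit.

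The axon and cytoskeleton loci had 9 members, 6 lower in F9 cells and none higher, beside 7.97% and 8.46% of all probes. The lncRNA named for Map2, a microtubule protein of dendrites, had brain levels of 1.43, 1.47 and 1.01 and no F9 array above background, at least 13.2-fold lower. AK019605, antisense over the exons of Rtn1, a reticulon gene, had 5.73, 5.92 and 5.90 in brain and 0.61, 2.14 and 1.42 in F9 cells (-4.46 ± 0.38). Its probe shared 19 bases on the same strand with that of AK134360 (-4.48) and 17 with that of AK132839 (-4.45). Probes with such a run on the opposite strand, such as XLOC_027217 (4.90), changed the other way. The AK019605 probe may therefore bind RNA of loci other than Rtn1, and the share of each was not tested. Klc2, a kinesin light chain gene, had 5.00, 5.21 and 5.15 and then 2.30, 2.20 and 2.15 (-2.90 ± 0.24), and Gap43, described above, did not pass the fold limit.

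The adhesion and guidance loci had 21 members, 9 lower in F9 cells and 2 higher, beside 7.97% and 8.46% of all probes. AK081729, antisense in an intron of Gfra2, a receptor for neurturin (chr14:70934045-70935821, minus strand), had brain levels of 4.85, 4.53 and 4.62 and no F9 array above background, at least 135-fold lower (limma adjusted p = 7.57e-08). It was the other intronic member that was lower. The intronic members of the netrin gene Ntn4 were not called: Gm8580 had 9.40, 9.70 and 9.33 in brain and 11.13, 11.61 and 11.66 in F9 cells (1.99 ± 0.27), and Gm15963 had 8.47, 8.59 and 8.30 and then 10.01, 10.52 and 10.57 (1.92 ± 0.27). Gm15670 in Erbb4, a neuregulin receptor, had 9.47, 9.59 and 9.24 in brain and 10.63, 11.06 and 11.19 in F9 cells (1.53 ± 0.27), and -0.25 after quantile normalization. Gm4660 in the ephrin receptor gene Epha6 had 8.23, 7.87 and 7.77 and then 8.73, 8.48 and 8.69 (0.68 ± 0.26), and -0.79 after quantile normalization. Gm14578, a pseudogene in an intron of the teneurin gene Tenm1, had 5.05, 4.70 and 4.56 in brain and 7.59, 8.26 and 8.38 in F9 cells and was higher there (3.31 ± 0.30).

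The secretory and signalling loci had 9 members, 5 lower in F9 cells and none higher, beside 7.97% and 8.46% of all probes. Resp18, which encodes a protein of endocrine secretory granules (chr1:75272202-75278380, minus strand), had brain levels of 6.44, 6.55 and 6.36 and no F9 array above background, at least 466-fold lower (limma adjusted p = 4.27e-08), the largest such bound among the members. In contrast, the exonic sense lncRNA of Sez6, a seizure-related membrane protein gene (chr11:77930839-77979048, plus strand), had 8.91, 9.85 and 9.50 in brain and 8.76, 9.97 and 10.18 in F9 cells. The groups overlapped, and the difference was 0.22 ± 0.42 (limma adjusted p = 0.661), within the spread between arrays, with -0.44 under the scaling on detected probes and -1.47 after quantile normalization. Gm21984 at its relative Sez6l2 had 10.16, 10.22 and 9.96 and then 11.26, 11.62 and 11.71 (1.42 ± 0.26, not called), and -0.088 after quantile normalization.

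The myelin and glia loci had 6 members, 4 lower in F9 cells and none higher, beside 7.97% and 8.46% of all probes. Mobp, a myelin protein gene of oligodendrocytes (chr9:120149742-120181484, plus strand), had brain levels of 6.11, 6.04 and 5.28 and no F9 array above background, at least 299.6-fold lower (limma adjusted p = 1.01e-07). Aldoc, an aldolase gene of astrocytes and Purkinje cells, had 3.88, 3.80 and 3.47 in brain and -1.78, -2.47 and -2.55 in F9 cells (-5.98 ± 0.30). It was detected on only 1 of the 3 F9 arrays, so that difference has no measured size. In a tissue, fewer cells of a type and less RNA per cell cannot be told apart.

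The transcription and RNA-binding factor loci had 13 members, 7 lower in F9 cells and none higher, beside 7.97% and 8.46% of all probes. Gm13645, antisense over the exons of the chromatin remodeller gene Chd5 (chr4:152352198-152353641, minus strand), had brain levels of 4.15, 3.94 and 4.49 and was at least 97.6-fold lower in F9 cells, where no array was above background. AK156916, antisense over the exons of the transcription factor gene Mef2c (chr13:83663950-83667661, minus strand), had 4.04, 4.07 and 4.30 and was at least 93.7-fold lower. Dlx1as, antisense to a homeobox gene of inhibitory neurons, had 3.09, 3.31 and 2.74 in brain and -1.87, -1.87 and -1.53 in F9 cells (-4.80 ± 0.27). Srrm4os, antisense to a splicing factor gene of neurons, had -1.89, -1.30 and -1.61 in brain and -0.70, -0.49 and -0.04 in F9 cells (1.19 ± 0.29, not called). The exonic sense members of Uncx and Pou6f1 were detected on all arrays with differences of -0.15 ± 0.28 and -0.13 ± 0.28.

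**Figure D3:**
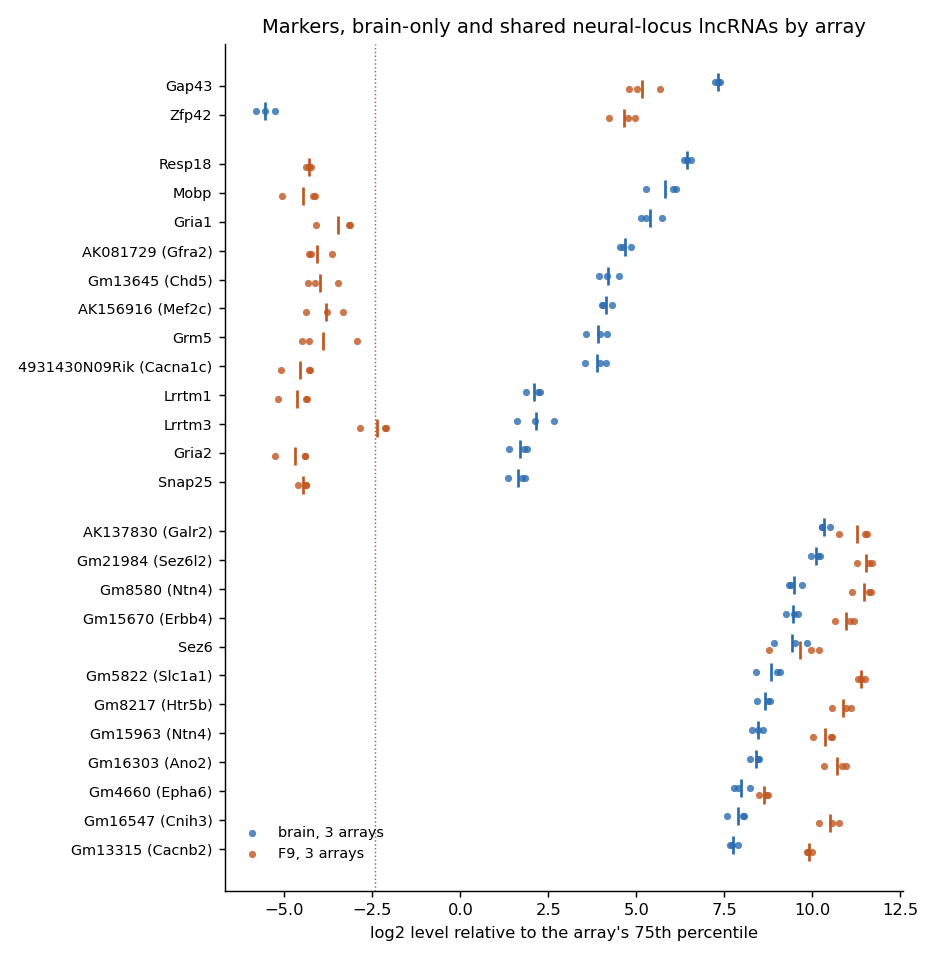
Level on each of the 6 arrays (log2 relative to the 75th percentile of the array) for Gap43 and Zfp42, the 12 members detected in brain alone (middle block) and the 12 shared members (lower block). Points are arrays, brain in blue and F9 in orange, vertical bars are means of 3 arrays, and the dotted line is the mean of the lowest detected levels on the F9 arrays. The F9 points of the middle block lie left of the dotted line or, for Lrrtm3, around it, and in the lower block all points lie far to its right, with F9 right of brain for all but Sez6.

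The log2 changes of probes that share sequence were set side by side. Over the 17 intronic members with a shared run, the difference between a member's log2 change and that of the probe with the longest shared run was 0.0971 in the median, with a range of 0.000645 to 1.15. Gm16547 and Gm13472 changed by 2.62 and 2.62, Gm14775 and Gm14614 by 2.73 and 2.73, Gm8217 and Rpl23a-ps4 by 2.22 and 2.15, Gm16303 and Gm15014 by 2.30 and 2.42, and Gm13312 and Gm5566 by 3.01 and 2.83. The pairs farthest apart were Gm12653 and Asap3 (-1.08 and -2.24) and Gm13541 and Gm13622 (2.93 and 2.08). Pairs without a shared run were not compared. Pseudogenes on both lists had close medians at large, 2.32 for intronic and 2.34 for intergenic ones. A probe with a shared run may bind RNA of several copies, and the share of each was not tested. Among the 13 intronic members that were higher in F9 cells, 7 had a shared run (53.8%), and 9 carried a pseudogene biotype.

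The same probes were read on the arrays of the other 6 groups of the series, 4 further tissues and the GC-1 and GC-2 lines from the male germ line. The 13 intronic members that were higher in F9 cells had a median level of 8.98 in F9 cells, 8.29 in GC-1 and 8.05 in GC-2, and of 5.31 to 6.15 in the 5 tissues. F9 cells had the highest level of the 8 groups for 11 of the 13 and GC-1 for the others, but these 13 were taken because they were high in F9 cells against brain. Over all 38 intronic members the medians were closer, with 8.33 in F9 cells, 7.92 in GC-1, 8.04 in GC-2, 6.72 in brain and from 5.34 (testis) to 7.52 (liver) in the 4 further tissues, and F9 cells were highest for 20 of the 38. All 49 members detected in brain and on no F9 array had their highest level in brain, and 42 of them were named from the list that was chosen for that pattern.

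**Figure D4:**
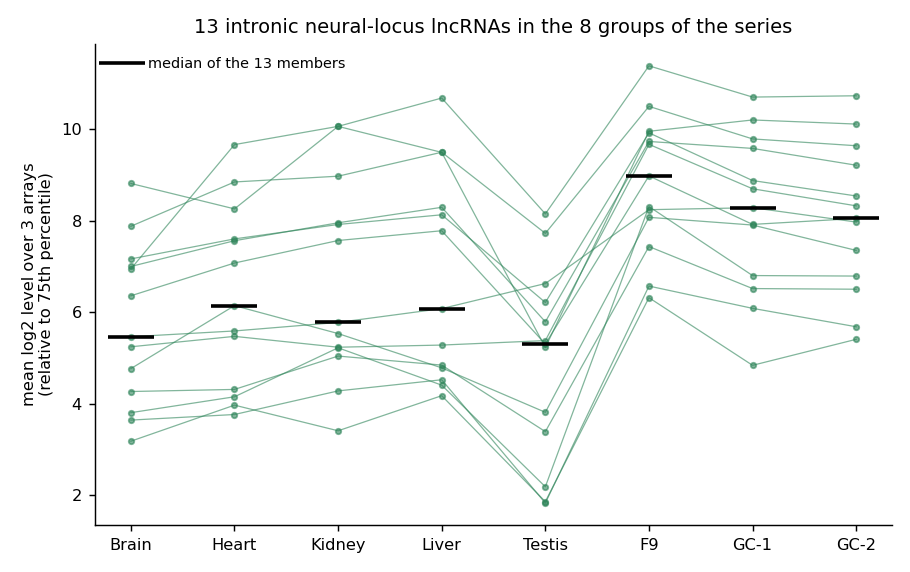
Level in each of the 8 groups of the series (log2 relative to the 75th percentile of the array, mean of 3 arrays) for the 13 intronic members higher in F9 cells. Each thin line is 1 probe and each black bar the median of the 13. The median is 8.98 in F9 cells, 8.29 in GC-1 and 5.47 in brain, and most lines dip in testis.

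Of the 29 genes on a list of pluripotent and embryonal carcinoma genes, 7 had a named probe, of which 3 were higher in F9 cells and none was lower, beside the 8.46% of all probes that were higher. These 3 were named only through lists that fixed or favoured that direction, Zfp42 and Trim71 by the list of testis-specific mRNAs found in F9 cells and Tdh by the list of F9 lncRNAs, so the count is no independent evidence. The exonic sense lncRNA of Tdh, which encodes threonine dehydrogenase, an enzyme of mouse embryonic stem cells, had levels of 5.31, 5.58 and 5.54 in F9 cells and no brain array above background, at least 498-fold higher (limma adjusted p = 4.51e-08). The mRNA of Trim71, an RNA-binding ubiquitin ligase of early embryos, had 6.49, 6.45 and 6.54 in F9 cells and -3.36, -2.85 and -3.89 in brain, where it was detected on 2 of the 3 arrays (9.86 ± 0.31). The others were detected in both groups and were not called: Mycn at 0.30 ± 0.34, AK013270 beside Foxd3 at 0.62 ± 0.27, Jarid2 at 0.77 ± 0.28 and Gm26563 in Suz12 at 1.41 ± 0.26. After quantile normalization the first 3 of these were at -0.76, -1.02 and -0.13. Of 13 genes of endoderm, the fate that F9 cells take on differentiation, 2 had a named probe and neither was called, with -0.40 ± 0.43 for Col4a2, a basement membrane collagen gene.

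The probe named for Jarid2 (chr13:44869571-44869975, minus strand), antisense in an intron of this gene of the Polycomb machinery, shared 52 of its 60 bases with that of AK155692 (chr15:86194749-86195280, plus strand), which changed by 0.75. The signal of the probe therefore cannot be assigned to the Jarid2 locus alone, and the shared run is in capitals:
Jarid2: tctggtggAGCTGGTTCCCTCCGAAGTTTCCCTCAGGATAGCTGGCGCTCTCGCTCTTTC
AK155692: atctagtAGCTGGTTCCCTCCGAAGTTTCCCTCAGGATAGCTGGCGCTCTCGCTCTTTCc

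A list of genes taken as imprinted, that is with 1 parental copy expressed, had 19 named probes. Of these, 4 were lower in F9 cells and 2 were higher, beside 7.97% and 8.46% of all probes. Peg13, a paternally expressed lncRNA of brain, had levels of 7.42, 7.47 and 7.78 in brain and -3.97, -1.51 and -1.91 in F9 cells, where it was detected on 2 of the 3 arrays (-10.02 ± 0.56, limma adjusted p = 1.05e-06). The maternally expressed Meg3 did not behave as 1 transcript: 2 of its probes were lower (-7.70 and -6.86), and the other 5 had differences from -1.75 to -0.32 and were not called. The probe at -6.86 was detected on 2 of the 3 F9 arrays. Peg13 and both lower probes of Meg3 were named only by the lists of brain or brain-specific lncRNAs, which favoured that direction. Snhg11, whose imprinting was not checked here, was lower (-3.63 ± 0.68) and was detected on 1 of the 3 F9 arrays. It was named only by the list of brain-specific lncRNAs. The 2 probes of Nespos, antisense to the Gnas locus, that were higher were at least 7.33-fold and 4.97-fold higher, and another probe there was not called (0.57 ± 0.24). Both higher probes were named only through lists of testis-specific lncRNAs found in cell lines, which left out lncRNAs of brain, so that their direction is no independent evidence. H19 had 8.47, 9.65 and 9.33 in brain and 8.37, 9.56 and 9.71 in F9 cells, and these overlapped (0.07 ± 0.44, and -1.56 after quantile normalization).

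Nuclear and housekeeping RNAs had 21 probes at 11 of 15 loci, of which 3 were lower in F9 cells and 4 were higher, beside 7.97% and 8.46% of all probes. Malat1, a lncRNA of nuclear speckles, was lower at 2 of its 3 probes, the first with 5.06, 6.01 and 6.19 in brain and 3.01, 4.14 and 2.55 in F9 cells (-2.52 ± 0.46) and the second with 8.52, 8.56 and 8.89 and then 6.24, 6.94 and 5.28. Both lost the call with the slide as a block (-1.91 and -2.18), and the remaining probe was not called (-2.31 ± 0.36). Neat1, the scaffold of paraspeckles, had 5.14, 5.27 and 4.94 in brain and 3.65, 3.04 and 1.85 in F9 cells (-2.27 ± 0.43), and -0.80 with the slide as a block. Rpph1, the RNA of RNase P, had 2.95, 2.79 and 2.91 and then 6.45, 6.94 and 6.61 (3.79 ± 0.26), and the snoRNA host genes Snhg1 (3.37 ± 0.34) and Snhg6 (2.54 ± 0.26) and the Taf1d transcript (3.37 ± 0.34) were higher too, while Snhg6 was 1.88 with the scaling on detected probes. Gas5, another snoRNA host, was lower at 1 probe (-3.98 ± 0.28) and not called at its others, which ranged from -0.01 to 1.40 and of which several were below 0 after quantile normalization. The probes of Rpph1, Snhg1 and Taf1d were named only by the list of F9 lncRNAs. The lower probe of Gas5 and the first of Malat1 were named only by the list of brain lncRNAs. Of lncRNAs on the F9 list but not the brain list, 85.9% were higher. Of those on the brain list but not the F9 list, 39.1% were lower. The counts are therefore no independent evidence of direction.

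**Figure D5:**
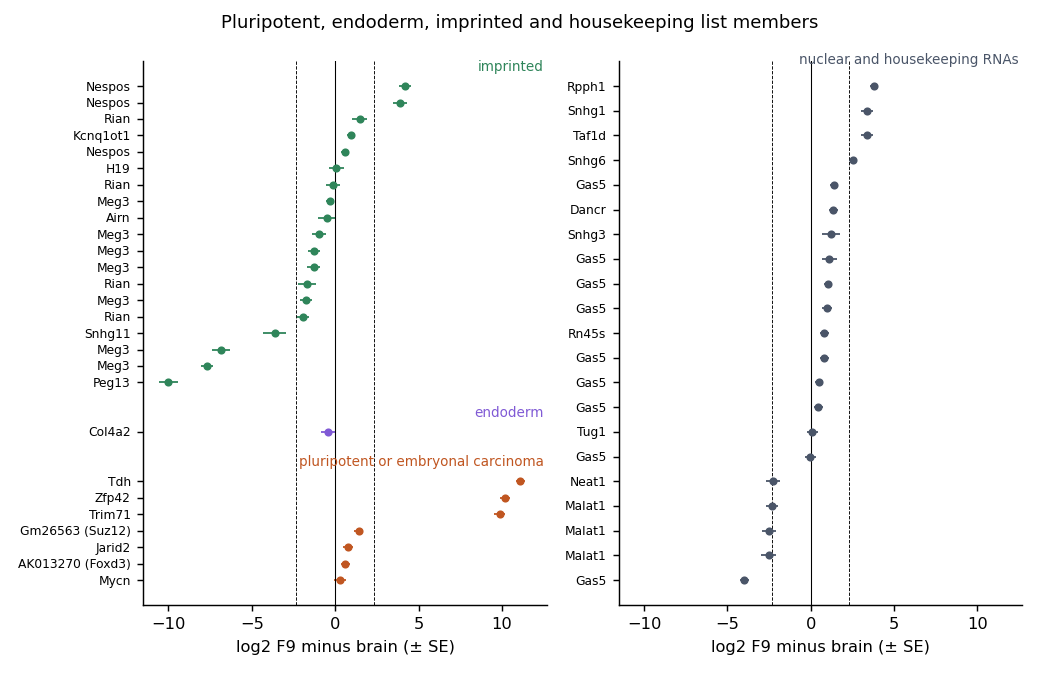
Fitted difference of F9 cells minus brain (log2, ± SE, 3 arrays each) for named probes of the pluripotent, endoderm, imprinted and housekeeping lists. Dashed lines mark a fold of 5. Tdh, Zfp42 and Trim71 lie far to the right, Peg13 and 2 probes of Meg3 far to the left, and the probes of Gas5 and Meg3 are spread over several units; for probes not above background in a group the point is the fitted value, and the text gives the bound.

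Markers of other cells were present in brain RNA. Hba-ps4, a pseudogene of the hemoglobin alpha genes and the 1 named probe of 6 red blood cell genes, had levels of 10.00, 10.39 and 10.26 in brain and -1.91, -1.69 and -1.99 in F9 cells, where 2 arrays detected it (-12.08 ± 0.26). Of 8 genes of microglia and leukocytes, 2 had a named probe: Siglech, a microglial gene, had -0.86, -0.99 and -0.98 in brain and no F9 array above background, at least 2.77-fold lower, and AK171116 at Laptm5 had 5.54, 5.33 and 5.70 in brain and 7.18, 6.71 and 6.88 in F9 cells (1.40 ± 0.27, not called). No probe was named for the 6 genes of endothelium and mural cells or the 5 of fibroblasts. These levels moved with the comparison, and their part in the result was not tested.

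Among all lncRNAs on the brain or the F9 list, the 5 each way with the most extreme fitted differences were taken, with no order among them, since most were not above background in 1 group. Beside Hba-ps4, those lower in F9 cells were AK040676 (chr16:64872824-64873883, at least 913-fold lower), AK045458 (chr13:51428633-51429882, at least 673-fold), B430212C06Rik (at least 1566-fold) and Resp18. Those higher were Gm5229, a pseudogene (chr17:78177590-78177947, at least 6735-fold higher), Gm11649 (chr11:107531931-107532305, at least 1418-fold), Tdh, BC100492 on the X chromosome (at least 473-fold) and Gm6083, a pseudogene detected on all 6 arrays (10.27 ± 0.29). The limma adjusted p of these was at most 3.66e-07. All 3 arrays of 1 group lay above those of the other for each of them. The probes of Gm5229 and Gm11649 shared 25 bases on the same strand. That of BC100492 shared 42 bases with the probe of 8030474K03Rik (8.14), and that of Gm6083 shared 16 with the probe of Gm6798 (10.24). These probes may bind RNA of several loci, and the share of each was not tested.

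Slide was partly aligned with the groups, with the other brain arrays on 1 slide and the other F9 arrays on another, while each group had 1 array from the first scan day and 2 from the second. F9 and brain replicates 1 lay on the same slide and were scanned on the same day, and on those 2 arrays 118 of the 119 neural-locus members had the same sign as in the full comparison. Correlations between arrays were taken over probes detected in both groups, so probes detected in only brain or only F9 cells are left out. They were 0.986 to 0.989 within brain, 0.979 to 0.996 within F9 cells and 0.784 to 0.816 between the groups, as a description over probes.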

How the data were processed

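Total RNA of 3 brain and 3 F9 samples was labelled with Cy3 and hybridized to 1-colour Agilent arrays. The authors deposited Feature Extraction files with the processed signal, an intensity after background subtraction, and a value table of the same intensities (largest relative difference 0.000228). The 24 arrays carry 62243 spots, of which 60804 are transcript probes. The intensity was put on the log2 scale minus the array's 75th percentile, spots flagged as outliers were left out before averaging, and no array had a saturated transcript spot.

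limma 3.58.1 in R 4.3.3 (lmFit and eBayes) was fitted on the 6 arrays over all 60804 probes with Benjamini-Hochberg adjustment. A call needed an adjusted p no higher than 0.05 and a change of 5-fold or more, limits taken from the study. The fit was tested on simulated data: at a true log2 change of 3, 84% of the changed probes were called, and at 4, 100%, while 2 unchanged probes were called in a simulation of 60804 probes. Changes were put only in probes detected on all 6 arrays, with independent noise and no shift in scaling. These rates therefore do not extend to probes near background or to the effect of the scaling. Python 3.11.15 with numpy 2.4.6, pandas 2.3.3 and matplotlib 3.10.9 made the summaries. The number of arrays limits the precision.

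Names, classes, positions (GRCm38) and probe sequences came from supplementary lists, held in part, which name 3478 probes (5.72%). Biotypes came from RefSeq (GRCm38.p6) by symbol, with 86 of 119 members matched. Of 153 transcripts named for a RefSeq gene, 150 lay within that gene. Mean signal was not used for the normexp alternative, which took the median signal with an offset of 50.

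The members, lists and tests were chosen with earlier results of these data known. Named by rule were Gap43 and Zfp42, the 12 members detected in both groups with the highest level in the lower group, the 12 detected in brain alone with the largest bound, the 5 largest differences each way among listed lncRNAs, and every member of the 4 further lists. Other members were picked as examples after their values were seen. A few members are counted and not reported here by name. The alternatives were other scalings, background corrections, fold limits, detection flags, slide and replicate blocks, the value table, a filter on undetected probes, a fit of all 24 arrays and leaving out each array.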

Additional observations from a re-analysis of the deposited data

How the results depend on the processing

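The comparison was recomputed under 163 combinations of a main count and an alternative, of which 140 stayed within 1.5 times of the reported count and 23 moved. With scaling on the 75th percentile of detected probes, 3003 probes, 7 neural-locus members and 35 and 62 intronic lncRNAs of the brain and F9 lists were higher in F9 cells, and with scaling on the median of detected probes the last 2 counts were 57 and 86. Quantile normalization left 4 members and 14 and 41 intronic lncRNAs higher. Normexp left 3668 probes called (2029 higher, 1639 lower) and 25 members lower. A fold of 2 gave 33331 probes (23416 higher, 9915 lower), 28 members higher, 89 exonic sense lncRNAs of the brain list lower, 186 and 228 intronic lncRNAs higher, and 29 called probes of the 4 further lists. A common limit of detection gave 5212 probes in brain alone and 3487 in F9 cells alone. The cause was not tested.

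Leaving out each array gave 9896 to 10421 called probes (5013 to 5630 higher, 4791 to 4950 lower), 62 to 64 members lower, 14 to 17 higher, 54 to 57 exonic sense lncRNAs lower, 80 to 113 and 115 to 150 intronic lncRNAs higher and 14 to 19 called probes of the further lists. Replicate numbers did not pair the arrays (correlations of deviations 0.158, 0.109 and 0.049), and with the replicate block 10022 probes were called (5171 higher, 4851 lower), with 63 members lower and 14 higher.

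For single named probes, 1206 values under an alternative kept the call and, where the adjusted p was at most 0.05, the direction, 46 on the shared slide moved by more than the spread, 28 gained the call and 19 lost it. With such a p, 10 changed sign, all 10 after quantile normalization: AK137830 (-0.65), Gm21984 (-0.088), Gm15670 (-0.25), Gm4660 (-0.79), Gas5 at 3 probes (-0.14, -0.16 and -0.51), Rn45s (-0.37) Jarid2 (-0.13) and 1 further probe (-0.28). None of these was called in the main comparison. Probes near background limit what can be seen in F9 cells, whose arrays were dimmer.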
